A study of Caenorhabditis elegans with 91 samples.

Results

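F1 animals are the first generation without the array: rde-4(ne299) mutants (strain BFF 12) whose parents, strain BFF15, carried the extrachromosomal array pigEx10. The array expresses rde-4 with yfp from the rgef-1 promoter, which is active throughout the nervous system, together with gfp under the unc-122 promoter, a marker of the coelomocytes. Whole-animal small RNA libraries of the 3 F1 samples were compared with 3 rde-4(ne299) libraries (replicates 9 to 11), chosen by their titles, so that 6 of the 91 libraries of the series form the comparison. Carriers of the array (P0, 3 libraries, with the rde-4(ne299) mutation as well) and F3 descendants without it (3 libraries) were used beside them. All 12 libraries came from one-day adults at 20 °C on OP-50 bacteria. Every group, carriers included, lacks RDE-4 from the chromosomal gene, and the labels say neither whether only array-positive animals went into the P0 libraries nor whether replicates came from separate cultures. P-values therefore measure the spread between these libraries.

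RDE-4 is a double-stranded RNA binding protein that hands long double-stranded RNA to Dicer. The small interfering RNAs so made are loaded onto Argonaute proteins, among them ERGO-1, and RNA-dependent RNA polymerases then make many secondary small RNAs from the target transcript. In Caenorhabditis elegans such secondary small RNAs can be passed from parents to offspring, and a descendant without RDE-4 can in principle hold small RNAs that RDE-4 started in its parents. F1 against rde-4 thus asks which genes had other small RNA levels after the array was lost, and F1 against P0 asks which levels went with the array.

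The 12 libraries held 4437652 to 11241283 reads in genes, so that 1 read was worth 0.0890 to 0.225 CPM, the share of a gene in all reads in genes scaled to a common total. Reads in no gene made up 22.5 to 29.1% of each library. Replicate 3 of F1 and of P0 stood further from the other replicates than those from each other: the reduced chi-square of read counts was 14.4 and 19.2 for F1 replicate 3 against replicates 1 and 2, and 6.45 between replicates 1 and 2. No 2 replicates of a group agreed within sampling noise. Levels are CPM scaled by TMM, a scaling that sets most genes equal between libraries, and differences are log2 differences with their standard error (SE) from edgeR's quasi-likelihood fit of all 12 libraries, whose p-values were adjusted over the 11252 genes tested. A gene was called at an adjusted p under 0.05.

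The array check came out as the labels say. Small RNAs of rde-4, which the mutant's own transcript and the transgene share, stood at 288, 283 and 380 CPM in F1, against 2847, 2801 and 4606 CPM in P0, a difference of -3.43 ± 0.21 (adjusted p = 1.33e-06, n = 3 each, edgeR). F1 did not overlap P0, and all 3 F1 libraries lay above the 222, 221 and 266 CPM of rde-4 replicates 9 to 11, by 0.43 ± 0.20 (adjusted p = 0.865). They also lay above all 11 rde-4 libraries at 20 °C, with 274 to 377 CPM on the scale of those 14 libraries. On that scale rde-4 replicates 1 to 8 were at 77.2 to 115 CPM. Replicates 9 to 11, at 215 to 263 CPM, stood above replicates 1 to 8 as well, and the gap between them and F1 was narrow. F3 libraries, with 188, 243 and 252 CPM, overlapped rde-4 replicates 9 to 11.

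Small RNAs of the gene rgef-1, whose promoter the array carries, were at 0.842, 0.448 and 0.341 CPM in F1, against 75.5, 85.4 and 137 CPM in P0 (-7.56 ± 0.37, adjusted p = 8.70e-08, edgeR). Those of unc-122 were at 1.18, 0.807 and 2.27 CPM in F1 and at 10.2, 11.4 and 16.2 CPM in P0 (-3.13 ± 0.37, adjusted p = 0.000424). In neither gene did F1 and P0 overlap, and neither was called against rde-4. For sng-1, the promoter of the study's other array, the libraries held 0 to 5 reads each, which was too few to test.

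The genes unc-54, which encodes the main body wall myosin, and aex-5 are neighbours of unc-122 in the gene order of the WBcel235 annotation (unc-54 lies 2 places from both others), were named after their values were seen, and went with the array as well. For unc-54, levels were 59.4, 54.9 and 46.1 CPM in F1, against 916, 849 and 1282 CPM in P0 (-4.25 ± 0.26, adjusted p = 1.70e-06, edgeR). All 3 F1 values were also below the 80.4, 150.2 and 136 CPM of rde-4 replicates 9 to 11, a difference that was not called (-1.197 ± 0.24, adjusted p = 0.0752). For aex-5, which encodes a proprotein convertase, levels were 11.8, 18.8 and 5.23 CPM in F1 and 406, 472 and 692 CPM in P0 (-5.42 ± 0.39, adjusted p = 1.59e-05). F1 was also wholly below rde-4 replicates 9 to 11 for aex-5 (25.8 to 35.0 CPM in rde-4, -1.39 ± 0.37) and unc-122 (2.41 to 2.998 CPM in rde-4, -0.88 ± 0.39), neither of them called.

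The glycolytic gene gpd-2, which shares an operon with gpd-3, a gene spliced to the SL2 leader, followed the same course. Its levels were 0.842, 3.14 and 3.75 CPM in F1, against 46.4, 44.6 and 63.7 CPM in P0 (-4.24 ± 0.35, adjusted p = 1.80e-05, edgeR). The labels name an SL2 element in pigEx10 without its source. The paralogues gpd-1 and gpd-4 did not pass the test, with 427, 372 and 335 CPM in F1 and 338, 385 and 338 CPM in P0 for gpd-1, and gpd-3 missed it too (-1.84 ± 0.65, adjusted p = 0.999). Whole-gene counts cannot tell reads of the array from reads of the chromosome for any of these genes.

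**Figure D1:**
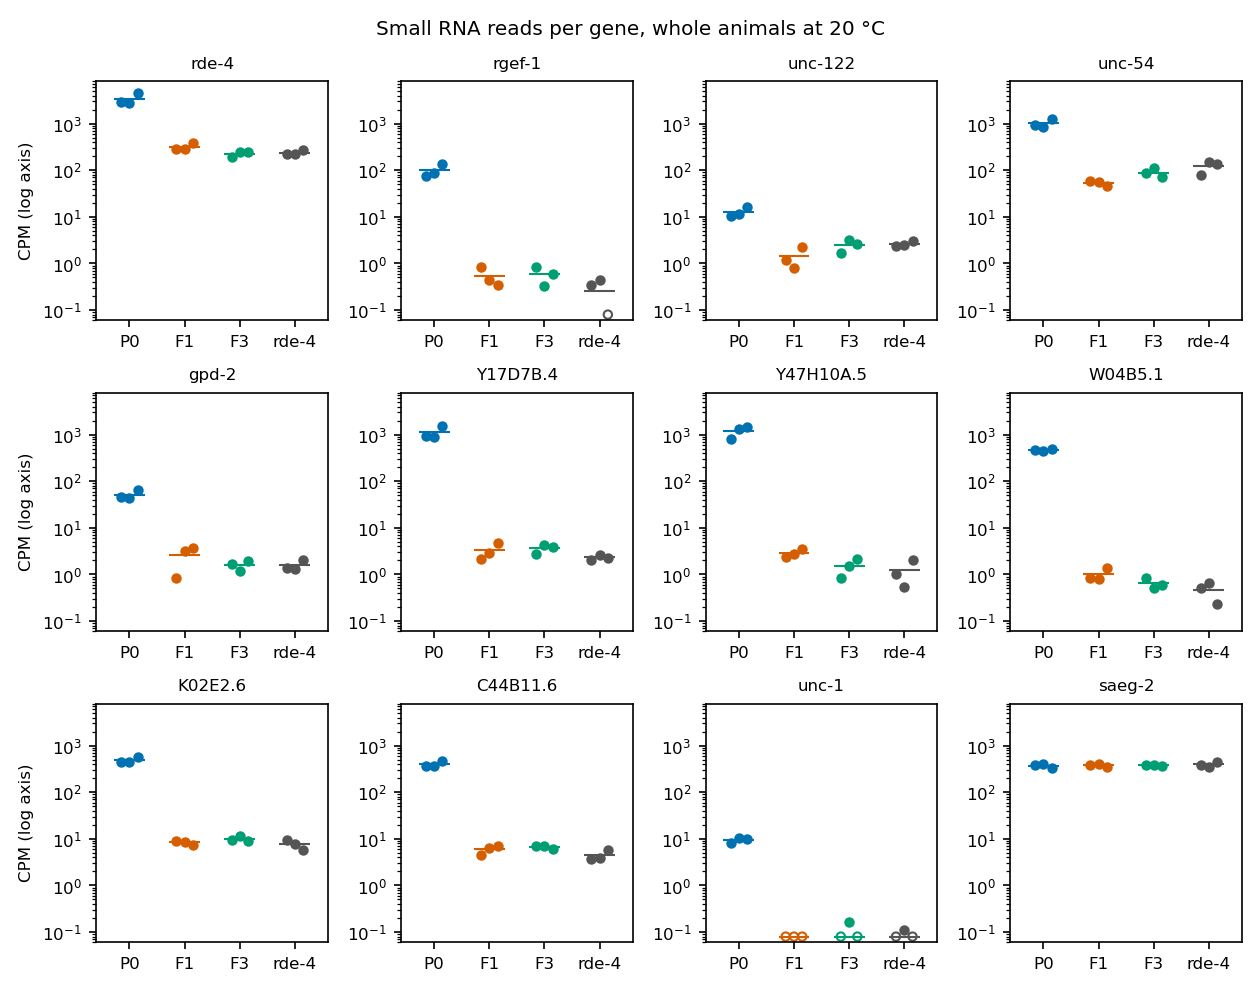
CPM (log axis, the same for all panels) of 12 genes in the 3 libraries each of P0, F1, F3 and rde-4 replicates 9 to 11. Points are libraries, bars are means and open circles are libraries with 0 reads, drawn at the lower edge. F1 stands far below P0 for all genes but saeg-2, as for W04B5.1 with 0.807 to 1.36 CPM in F1 against 444 to 485 CPM in P0.

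Between F1 and P0, 87 of 11252 genes were called (0.773%), 86 of them lower in F1 (0.764%) and 1 higher (0.00889%), while 289 had an unadjusted p under 0.05 (2.57%). Of 20 candidate ERGO-1 targets, a list chosen with earlier results of these data known, 17 were lower in F1 than in P0 and none was higher; the list's median difference was -6.09, beside -0.000487 over all genes tested. Summed over the 20 genes, small RNAs stood at 395 to 413 CPM in F1, against 5667 to 8176 CPM in P0 and 465 to 479 CPM in rde-4 replicates 9 to 11.

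The numbers 1 to 3 may pair the libraries of P0 and F1. Refitting these 6 libraries with that number as a blocking factor called 303 genes, 267 lower and 36 higher in F1. Differences and p-values of F1 against P0 in the text are from the fit without this block unless it is named. Both fits called 81 genes.

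The pseudogene W04B5.1 was at 0.842, 0.807 and 1.36 CPM in F1, against 466, 444 and 485 CPM in P0, which is -8.83 ± 0.16 (adjusted p = 3.05e-12, edgeR). Y47H10A.5 was at 2.36, 2.69 and 3.52 CPM in F1 and at 809, 1305 and 1483 CPM in P0 (-8.69 ± 0.32). Y17D7B.4 was at 2.19, 2.87 and 4.77 CPM in F1 and at 935, 893 and 1501 CPM in P0 (-8.36 ± 0.29). In each of these 3 genes the lowest P0 library was far above the highest F1 library.

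The ERGO-1 candidates K02E2.6 (9.09, 8.61 and 7.38 CPM in F1, against 455, 448 and 564.07 CPM in P0) and C44B11.6 (4.55, 6.28 and 7.04 CPM in F1, against 361, 367 and 469 CPM in P0) fell by 5.87 ± 0.16 and 6.03 ± 0.17 on the log2 scale. H09G03.1 fell by 7.04 ± 0.63, to 0.179 to 0.505 CPM in F1 against 39.01 to 51.7 CPM in P0. C36A4.11, listed at 6.57, 1.61 and 0 CPM in F1 and 299, 324 and 554 CPM in P0, fell by 7.40 ± 0.78 (adjusted p = 0.000536) but was not called with the number as a block (adjusted p = 0.161).

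For the neighbouring pseudogenes F56D6.16 and F56D6.17, F1 held 2 and 3 reads in all, so the size of their fall rests on counting. F56D6.16 was 3967-fold lower in F1 than in P0 (95% counting interval 1098 to 32766), with 285, 292 and 383 CPM in P0. F56D6.17 was 1112-fold lower (380.1 to 5394). These intervals, like the floors of 3 reads used below, cover counting error only.

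None of the ERGO-1 candidates named above was called in F1 against rde-4. W04B5.1 in F1 lay above the 0.231 to 0.650 CPM of rde-4 replicates 9 to 11 in all 3 libraries, by 0.95 ± 0.34 (adjusted p = 0.890), and Y47H10A.5 lay above the 0.542 to 2.08 CPM of those libraries by 1.45 ± 0.54 (adjusted p = 0.635). Y17D7B.4 overlapped rde-4 (0.50 ± 0.40), as did K02E2.6 (0.10 ± 0.18). Over all 11 rde-4 libraries W04B5.1 spanned 0.228 to 3.48 CPM, which holds the F1 values.

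Of the 86 genes lower in F1 than in P0, F1 overlapped rde-4 replicates 9 to 11 in 74, lay above them in 6 and below them in 6. Over all genes tested, 10.4% did not overlap between F1 and these rde-4 libraries. Against all 11 rde-4 libraries F1 was above in 2 of the 86 and below in none. The 2 were rde-4 itself and smg-6, named after its values were seen, a factor of nonsense-mediated decay whose level was 197, 193 and 219 CPM in F1, against 281, 270.3 and 343 CPM in P0 and 161, 178 and 164 CPM in rde-4 replicates 9 to 11.

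A wider list of RDE-4-dependent genes was drawn from libraries outside the comparisons of F1 with P0 and with rde-4 replicates 9 to 11: the genes called over 8-fold higher in wild-type N2 animals than in rde-4 replicates 1 to 3. Of its 90 members, 64 were tested here. Members with few reads elsewhere can have passed the filter on low counts only through P0, where they are high. The count and median against P0 therefore describe the tested members only. Of the 64, 39 were lower in F1 than in P0 (0.764% of all genes tested were), with a median difference of -3.69. That median did not move when genes with 3 or fewer F1 reads were set to the bound that 3 reads over the group allow. None of the 64 was called in F1 against rde-4, beside 0.355% of all genes tested, so a count of 0 says little here. In that comparison the list's median was 0.011 and that of all genes tested 0.0044. The summed level was 658, 631 and 601 CPM in F1 and 632, 612 and 655 CPM in rde-4 replicates 9 to 11, while P0 held 9660, 9746 and 13728 CPM.

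Within this list F1 lay above all 11 rde-4 libraries for H37A05.4 and below them for R05G6.5, beside 94 genes above (0.835%) and 114 below (1.01%) among the 11252 tested. Both were named after their values were seen; H37A05.4 was at 31.7, 27.0 and 27.6 CPM in F1, against 19.6, 15.6 and 17.3 CPM in rde-4 replicates 9 to 11, and R05G6.5 at 1.59 to 2.42 CPM in F1, against 2.49 to 3.27 CPM. The opposite list, 53 genes over 8-fold lower in N2 than in rde-4, held 3 genes called higher and 1 called lower in F1 against rde-4, with a median of 0.49, beside 0.355% of all genes tested called and a median of 0.0044. They were T23F6.3, cor-1, egl-8 and B0454.9, and against all 11 rde-4 libraries T23F6.3 and B0454.9 turned direction (-0.33 and 0.29). The list's summed level was 6237, 5444 and 6515 CPM in F1 and 5974, 5919.9 and 6177 CPM in rde-4.

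**Figure D2:**
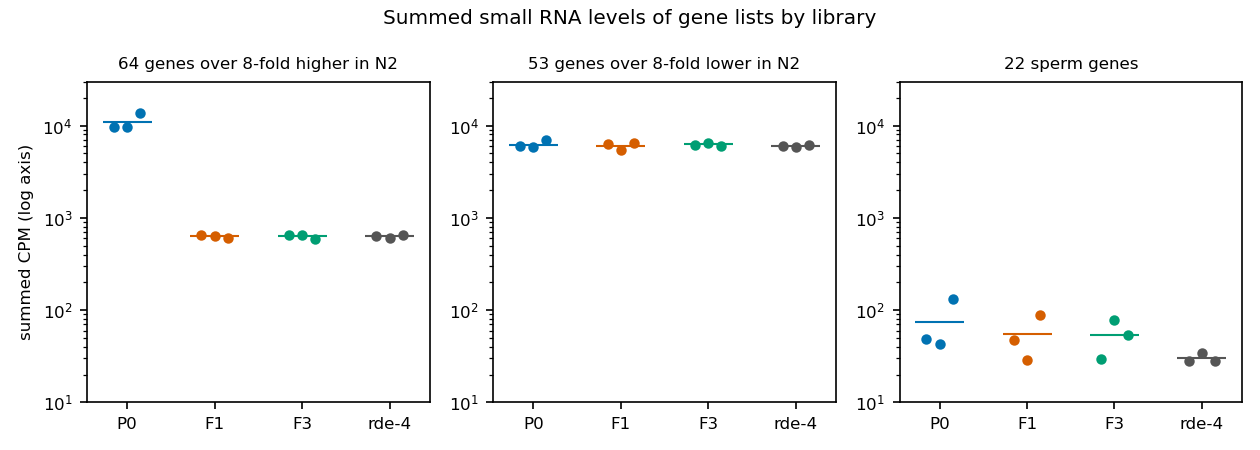
Summed CPM (log axis) of 3 gene lists in each library of P0, F1, F3 and rde-4 replicates 9 to 11, with means as bars. The 64 genes over 8-fold higher in N2 sum to 601 to 658 CPM in F1 and 9660 to 13728 CPM in P0, and the 22 sperm genes sum to 29.0 to 88.4 CPM in F1 and 28.2 to 34.0 CPM in rde-4.

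Many, but not all, of the genes that went with the array were called higher in wild type than in rde-4 mutants. Of the 86 genes lower in F1 than in P0, 69 were tested in N2 against rde-4 replicates 1 to 3 and 49 were higher in N2 there (14.5% of all genes tested in that comparison were). For the other array's carriers, pigEx9 P0, 33 of 44 tested were higher than rde-4 (1.48% over all genes).

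In contrast, 23 of the 86 (26.7%) averaged under 1 CPM both in N2 at 20 °C and in pigEx9 carriers, beside 6.32% of all genes tested. Some of them passed the filter on low counts only through P0, where they are high. They include rgef-1 and unc-122, the gap junction regulator gene unc-1, the cytochrome P450 gene cyp-34A2 and the ligand-gated channel genes lgc-11 and lgc-18; the channel genes were named after their values were seen. For unc-1, F1 libraries held no read, against 7.96, 10.4 and 9.86 CPM in P0, so that it was at least 79.9-fold lower with the floor of 3 reads over the 3 F1 libraries. For cyp-34A2, F1 also held none, against 7.34, 6.09 and 7.89 CPM in P0, at least 60.1-fold lower. Only 1 rde-4 library among replicates 9 to 11 held a read of unc-1 and none a read of cyp-34A2.

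The only gene called higher in F1 than in P0 was K09F6.6, at 35.0, 36.2 and 34.6 CPM in F1 and 22.03, 16.7 and 24.3 CPM in P0 (0.76 ± 0.15, adjusted p = 0.0365). It lost the call when any F1 library, or P0 replicate 1 or 2, was left out, or when only F1 and P0 were fitted, with adjusted p of 0.0930 to 0.181. Pseudogenes made up 17 of the 86 lower genes and 621 of the 11252 tested, and several of the 86 were neighbours: W04B5.1 with W04B5.2, ZK402.3 with ZK402.5, Y17D7B.4 with Y17D7B.7 and Y17D7B.10, and Y43F8B.8 with Y43F8B.9, Y43F8B.17, Y43F8B.22 and Y43F8B.28. Whether neighbours that resemble each other share reads was not tested.

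In the comparison of F1 with rde-4 replicates 9 to 11, 40 of 11252 genes were called (0.355%), 17 higher in F1 (0.151%) and 23 lower (0.204%), while 656 had an unadjusted p under 0.05 (5.83%). None of these 40 was among the 87 called between F1 and P0. By current annotation 37 encode proteins, 2 are pseudogenes and 1 could not be matched. All 40 had F1 and rde-4 values that did not overlap, beside 10.4% of all genes tested. The calls were made on these same values, so that count describes the called genes only.

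The number of calls hung on single libraries. It was 19 without rde-4 replicate 10 or without replicate 11, 22 without F1 replicate 1, 23 without F1 replicate 2 and 61 without rde-4 replicate 9. DESeq2 called 143 genes, with all 40 among them.

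**Figure D3:**
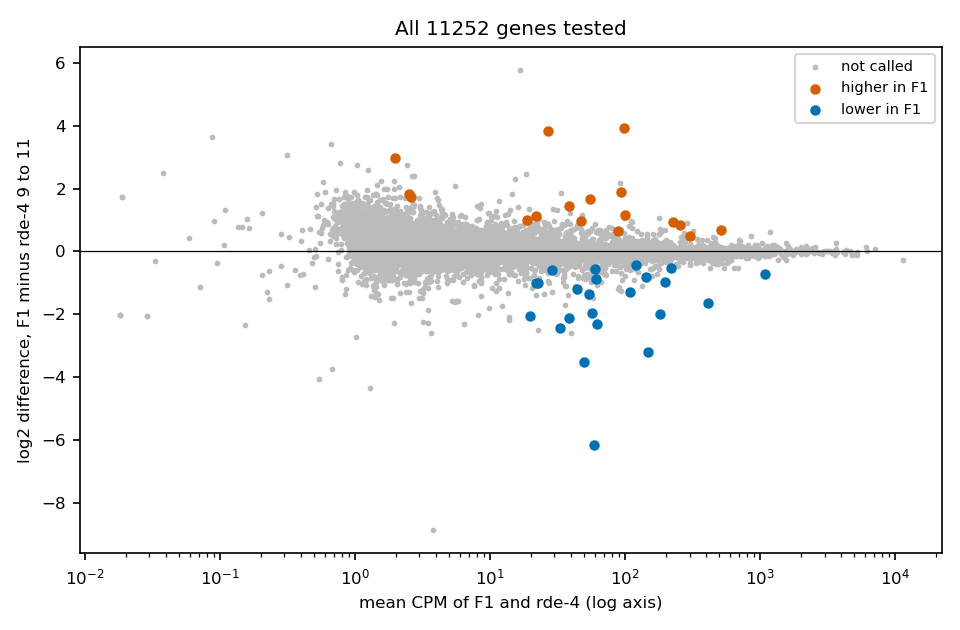
Log2 difference of F1 minus rde-4 replicates 9 to 11 against the mean CPM of both groups (log axis) for the 11252 genes tested by edgeR. The 17 genes called higher in F1 and the 23 called lower lie on both sides of a cloud centred near 0, with a median difference of 0.0044.

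Among the called genes with nervous system or signalling roles, jip-1, which encodes a JNK-interacting scaffold protein, was at 75.6, 77.9 and 67.7 CPM in F1, against 249, 338 and 289.6 CPM in rde-4 (-1.99 ± 0.14, adjusted p = 1.00e-05, edgeR). The gene eva-1, encoding a receptor component for the guidance cue Slit, was at 14.5, 16.5 and 11.7 CPM in F1 and at 51.0, 67.3 and 68.7 CPM in rde-4 (-2.13 ± 0.17). Both were lower in every F1 library than in every rde-4 library of the comparison. Against the mean of rde-4 replicates 1 to 8, jip-1 differed by -0.77 and eva-1 by only -0.012.

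The receptor guanylate cyclase gene gcy-23, known from the thermosensory neuron AFD, was at 38.6, 46.5 and 42.1 CPM in F1 and at 92.3, 74.3 and 69.9 CPM in rde-4 (-0.89 ± 0.14, adjusted p = 0.0161, edgeR). The intraflagellar transport gene dyf-2, which sensory cilia need and which was named after its values were seen, was at 18.2, 13.3 and 13.9 CPM in F1 and 24.3, 32.6 and 33.2 CPM in rde-4 (-0.999 ± 0.18, adjusted p = 0.0322). In the other direction, egl-8, the phospholipase C beta gene that acts in synaptic transmission, was at 706, 563 and 616 CPM in F1 and at 434, 367 and 375 CPM in rde-4 (0.68 ± 0.12, adjusted p = 0.0341). Against the mean of replicates 1 to 8, gcy-23 differed by -0.15 and dyf-2 by -1.12, and F1 overlapped their range in both genes. All of these are small RNA levels of the genes in whole animals and give no level of their mRNAs.

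Of the genes with roles in other tissues, the Patched-related gene ptc-3 (70.2, 68.4 and 51.7 CPM in F1, against 140.02, 187 and 133 CPM in rde-4) differed by -1.28 ± 0.16. The chitin synthase gene chs-2 (154, 121 and 125 CPM in F1, against 258, 278 and 254 CPM in rde-4) differed by -0.98 ± 0.14, and the complement-related gene tep-1 (6.90, 6.64 and 9.201 CPM in F1, against 20.8, 28.3 and 46.1 CPM in rde-4) by -2.05 ± 0.26. Higher in F1 were the coronin gene cor-1, which encodes an actin-binding protein, by 1.68 ± 0.25 (88.4, 94.0 and 68.9 CPM in F1, against 26.5, 25.9 and 26.3 CPM in rde-4), and the dosage compensation gene sdc-3 by 0.66 ± 0.09 (111, 111 and 104 CPM in F1, against 65.1, 64.01 and 77.7 CPM in rde-4). In none of these genes did F1 overlap rde-4 replicates 9 to 11, but in each it overlapped the range of replicates 1 to 8. Against the mean of replicates 1 to 8 the direction turned for chs-2 (0.51), ptc-3 (0.48) and tep-1 (0.099). For cor-1 that difference was 0.32 and for sdc-3 0.050.

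The called genes with the largest differences have no role that the annotation at hand gives. T23F6.3 was at 189.6, 153 and 213 CPM in F1 and 13.3, 12.5 and 10.4 CPM in rde-4 (3.93 ± 0.37), and Y39B6A.41 was at 43.6, 47.2 and 60.0 CPM in F1 and 3.44, 3.57 and 3.46 CPM in rde-4 (3.84 ± 0.23). C55C3.7 was at 4.72, 0.179 and 1.02 CPM in F1 and 77.7, 123 and 149 CPM in rde-4 (-6.15 ± 0.76). Y59C2A.1 was at 10.3, 7.18 and 6.47 CPM in F1 and 100.1, 87.3 and 85.3 CPM in rde-4 (-3.53 ± 0.16), and C53D5.5 at 26.6, 33.1 and 27.7 CPM in F1 and 282, 269.9 and 253 CPM in rde-4 (-3.20 ± 0.13). Replicates 9 to 11 of rde-4 agreed closely in these genes, C55C3.7 excepted. The 11 rde-4 libraries did not: they spanned 10.3 to 480 CPM for T23F6.3 and 2.66 to 18.2 CPM for Y39B6A.41. For Y59C2A.1 they spanned 7.37 to 97.0 CPM, and for C53D5.5 18.5 to 273 CPM.

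Other genes called higher in F1 were F54F7.7 (dot-1.2 in current names, of the DOT1 family of histone methyltransferases), by 1.43 ± 0.15, the riboflavin transporter gene Y47D7A.16 (now rft-1), by 1.90 ± 0.21, and Y37E11AL.1, ZK637.1, C03E10.3, R11G10.3, C30G12.1, T03D3.5, tag-80 and the Hedgehog-related gene wrt-4, by 0.50 to 2.98. Other genes called lower were C28C12.1, C56G7.3 (now elmd-1), C06A5.12, Y54E5A.8, Y94H6A.7 and B0454.9, by 0.72 ± 0.11 (B0454.9) to 2.44 ± 0.29 (C28C12.1) in size.

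Set against all 11 rde-4 libraries at 20 °C, F1 overlapped the range of the mutant in most of the called genes. Overlap does not place all 3 F1 libraries within that range. For C28C12.1, F1 replicate 1 was at 9.62 CPM, below the 12.4 to 193 CPM of the 11. F1 was wholly outside the full range of the 11 in 5 of the 40 genes, a larger share than the 1.85% of all genes tested. These 5 were egl-8 and Y39B6A.41, above, and jip-1, C06A5.12 and Y45F10A.3, below; Y45F10A.3 was named because the count is small.

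A fit of F1 against all 11 rde-4 libraries called none of 10988 genes with edgeR (0%), while 2079 had an unadjusted p under 0.05 (18.9%). Y39B6A.41 had the smallest adjusted p of the 40 there, 0.0586, with a difference of 3.01 ± 0.45. The 11 libraries fall into 4 sets by where their records are listed (1 to 3, 4 and 5, 6 to 8, 9 to 11), which the labels do not name.

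F1 was outside the range of rde-4 replicates 1 to 8 in 8 of the 40 genes, against 21.8% of all genes tested. Rde-4 replicates 9 to 11, listed with the array libraries, were themselves outside that range in 24 of the 40, against 23.3% of all genes tested. In 19 of the 40, F1 overlapped the range and replicates 9 to 11 were outside; in 3, F1 was outside and replicates 9 to 11 overlapped it; in 13 both overlapped it and in 5 both were outside. Of the 32 genes in which F1 overlapped the range, all 3 F1 libraries lay within it in 21. The F1 mean was nearer to the mean of replicates 1 to 8 than the mean of replicates 9 to 11 was in 31 of the 40. The F1 difference from replicates 1 to 8 had the same sign as that from replicates 9 to 11 in 27 of the 40. As the calls rest on F1 and on replicates 9 to 11 alike, these counts describe the called genes and test nothing.

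T23F6.3 shows the pattern at its most extreme. On the scale of the 14 libraries it was at 149 to 211 CPM in F1, at 10.3 to 12.9 CPM in rde-4 replicates 9 to 11 and at 138 to 480.4 CPM in rde-4 replicates 1 to 8. C53D5.5 was at 26.2 to 32.1 CPM in F1, at 251 to 273 CPM in replicates 9 to 11 and at 18.5 to 76.5 CPM in replicates 1 to 8, and Y59C2A.1 at 6.42 to 10.1 CPM in F1, 84.5 to 97.0 CPM in replicates 9 to 11 and 7.37 to 35.3 CPM in replicates 1 to 8. In these 3 genes F1 overlapped replicates 1 to 8, and replicates 9 to 11 stood apart.

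In C55C3.7 the 11 rde-4 libraries fell into a low and a high range. It was at 0.174 to 4.64 CPM in F1, at 0.406 to 4.695 CPM in rde-4 replicates 1 to 5 and at 75.3 to 148 CPM in replicates 6 to 11.

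For tag-80 and C30G12.1, F1 was higher than replicates 9 to 11 and lower than replicates 1 to 8. C30G12.1 was at 254 to 317 CPM in F1, 142 to 158 CPM in replicates 9 to 11 and 381 to 795 CPM in replicates 1 to 8, so its direction turned with the controls taken. B0454.9 was at 709 to 916 CPM in F1, 1178 to 1472 CPM in replicates 9 to 11 and 254 to 582 CPM in replicates 1 to 8, and its direction turned too. The median range of the 8 libraries 1 to 8 was 1.496 on the log2 scale over the 40 genes and 0.91 over all genes tested, while the median size of the F1 difference from replicates 9 to 11 was 1.23 over the 40; the difference was wider than the range of replicates 1 to 8 in 15 of the 40 and in 0.862% of all genes tested.

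**Figure D4:**
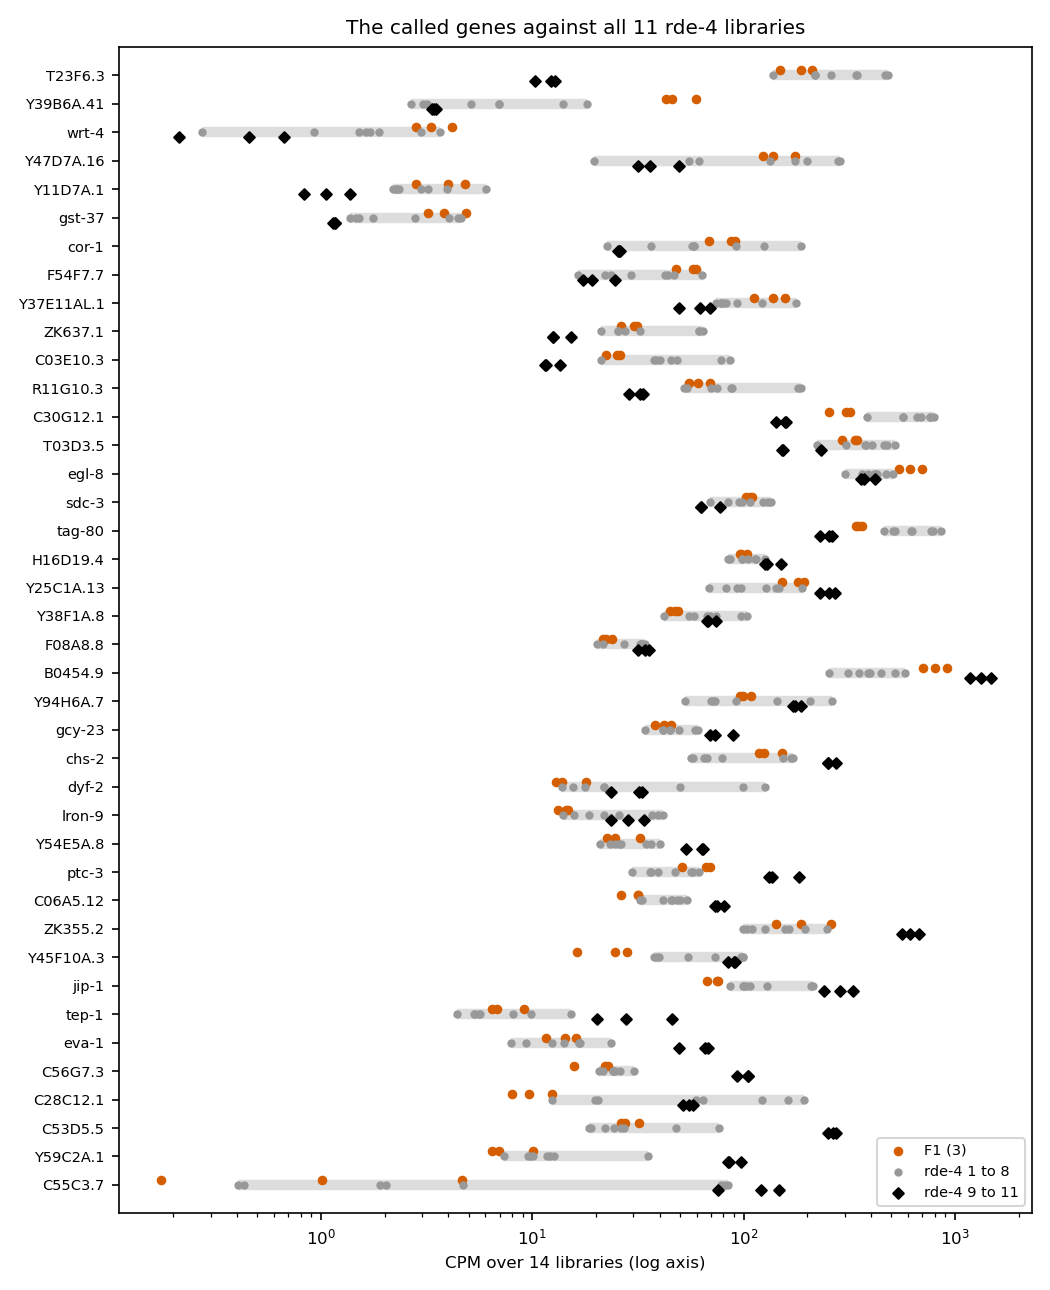
CPM (log axis) of the 40 called genes in F1 (3 orange points), in rde-4 replicates 1 to 8 (grey points, with their range as a bar) and in rde-4 replicates 9 to 11 (black diamonds), ordered by the F1 difference. F1 lies outside all 11 rde-4 libraries in 5 genes, and the black diamonds lie outside the grey range in 24.

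Y39B6A.41 stood apart from the rest of the calls. Its F1 libraries were at 43.0 to 59.5 CPM, against 2.66 to 18.2 CPM over all 11 rde-4 libraries, and it was called under each of the 15 alternative settings run on this comparison, also when all 11 rde-4 libraries entered the fit with P0 and F3 (3.03 on the log2 scale, adjusted p = 0.00393). In the fit of F1 and the 11 rde-4 libraries alone, given above, it was not called (adjusted p = 0.0586). It was at 60.0, 46.2 and 77.7 CPM in P0 and at 67.0, 52.5 and 50.6 CPM in F3, so that P0, F1 and F3 overlapped. On a scale over whole-animal libraries it averaged 4.34 CPM in N2 and 31.5 CPM in the integrated pigSi3 line at 20 °C.

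Of the other 4 genes outside all 11, egl-8 was at 546 to 695 CPM in F1 and 302 to 506 CPM in the 11 rde-4 libraries, and Y45F10A.3 at 16.3 to 27.9 CPM in F1 and 37.7 to 99.7 CPM in the 11. C06A5.12 was at 26.4 to 31.7 CPM in F1 and 32.4 to 80.4 CPM in the 11, and jip-1 at 67.1 to 75.6 CPM in F1 and 85.9 to 331 CPM in the 11. The gap was narrow for C06A5.12 and egl-8. The call of egl-8 was lost under 7 of the 15 alternatives, with adjusted p up to 0.228.

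F1 overlapped the carriers P0 in 36 of the 40 genes (90%) and the F3 descendants in 31 (77.5%). None of the 40 was called between F1 and P0 or between F3 and F1, though a missed threshold does not show equal levels. Over all genes tested, 7.81% did not overlap between F1 and P0 and 4.84% between F1 and F3. Overlap with P0 was thus about as common in the 40 as in all genes, and overlap with F3 less common. P0 and F3 were set against the same rde-4 libraries as F1, so their differences from rde-4 are no independent evidence and only the levels are given.

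For jip-1, levels were 82.4, 81.9 and 79.5 CPM in P0, 75.6, 77.9 and 67.7 CPM in F1 and 131, 92.8 and 122.4 CPM in F3, with rde-4 at 249 to 338 CPM. For cor-1, they were 105, 113 and 93.5 CPM in P0, 88.4, 94.0 and 68.9 CPM in F1 and 137, 123 and 60.9 CPM in F3. For T23F6.3, they were 234, 198 and 271 CPM in P0, 189.6, 153 and 213 CPM in F1 and 58.6, 178 and 150.1 CPM in F3. All of these lay on the same side of rde-4 replicates 9 to 11.

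**Figure D5:**
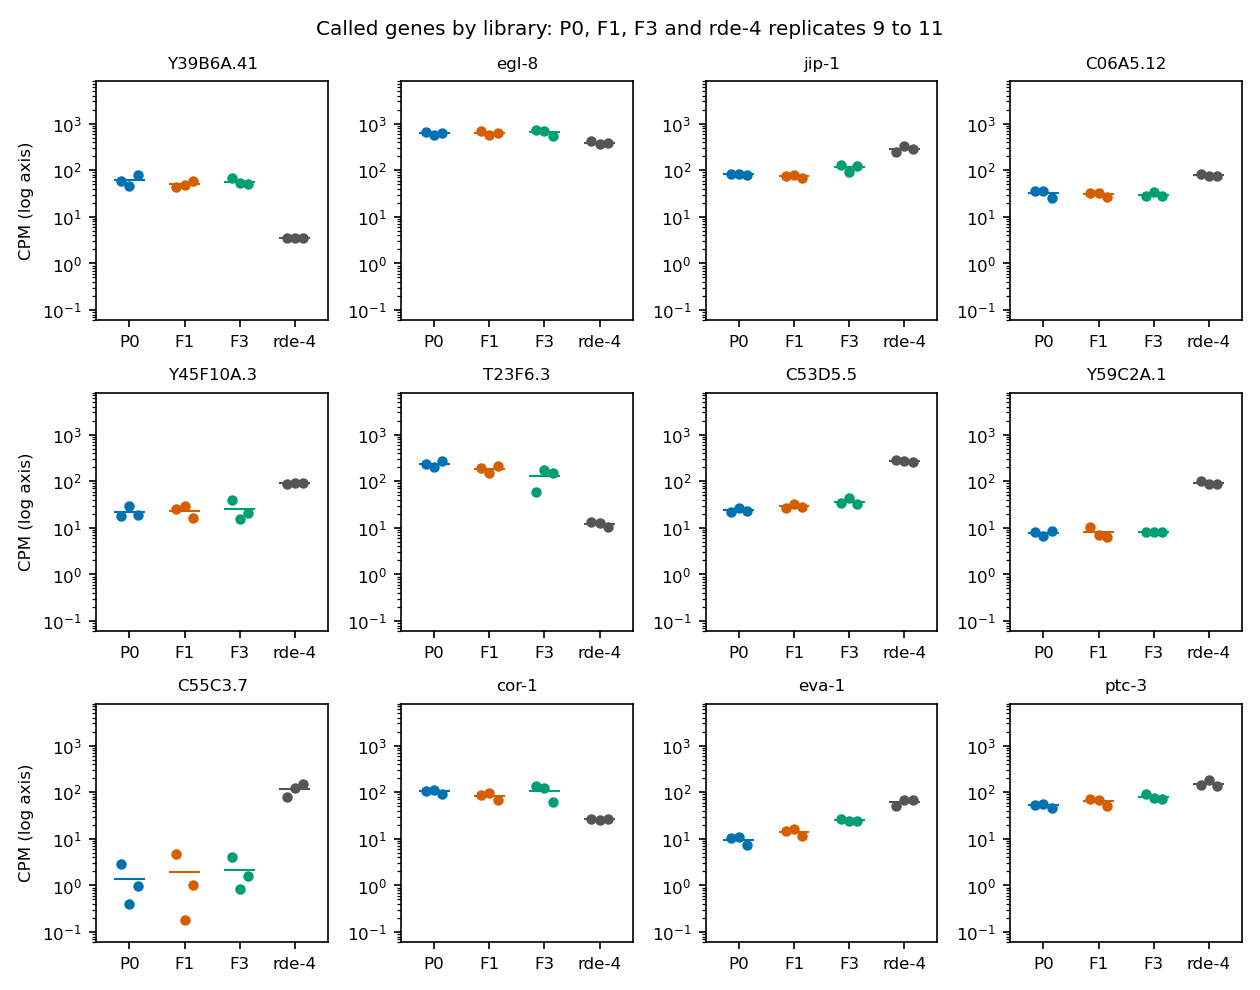
CPM (log axis, the same for all panels) of 12 called genes in the 3 libraries each of P0, F1, F3 and rde-4 replicates 9 to 11, with means as bars. P0, F1 and F3 lie on the same side of rde-4, as for Y39B6A.41 with 43.6 to 60.0 CPM in F1 and 3.44 to 3.57 CPM in rde-4. They do not always lie close together, as for eva-1 with 23.8 to 26.3 CPM in F3 and 11.7 to 16.5 CPM in F1.

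Between F3 and F1 no gene of 11252 was called with edgeR (0%), 210 had an unadjusted p under 0.05 (1.87%), and DESeq2 called 2. The smallest p belonged to C09F5.1, at 117, 127 and 133 CPM in F3 and 91.9, 78.6 and 74.9 CPM in F1 (0.62 ± 0.12, adjusted p = 1, edgeR), and jip-1 was among the next with 0.65 ± 0.13. Their rank was looked up after the fit.

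The F1 difference was set beside that of the study's other array, pigEx9, which drives rde-4 from the sng-1 promoter and whose F1 libraries were compared with the rde-4 replicates 4 and 5 listed with them. The difference of the F1 effects, pigEx10 minus pigEx9, passed at 246 of 11133 genes (2.21%) and at 174 (1.53%) without pigEx9 F1 replicate 3, a library of very few reads. Of the 40 called genes, 22 passed, and 21 without that library; the 40 were chosen on the pigEx10 F1 difference, which this contrast contains, so that count is a description only. Because each array has its own controls, a difference between rde-4 replicates 9 to 11 and 4 and 5 cannot be told apart from one between F1 groups.

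C55C3.7 and Y39B6A.41 differed from the controls of each array in opposite directions, and the controls themselves differed in both genes. On a scale over whole-animal libraries, C55C3.7 averaged 1.82 CPM in rde-4 replicates 4 and 5 and 109 CPM in replicates 9 to 11. It averaged 139 CPM in pigEx9 F1 and 1.83 CPM in pigEx10 F1. Y39B6A.41 averaged 14.9 and 3.28 CPM in these controls, 2.24 CPM in pigEx9 F1 and 46.4 CPM in pigEx10 F1. C55C3.7 differed by -12.38 between arrays, with a pigEx9 F1 difference of 6.19 (adjusted p = 0.00738, edgeR), and Y39B6A.41 by 6.52, with a pigEx9 F1 difference of -2.69 (adjusted p = 1.51e-06). In all, 8 of the 40 were called after pigEx9, beside 2.59% of all genes, and 17 of the 40 had the same sign after both arrays. The genes eva-1 and tep-1 were lower after pigEx9 as well (-1.63 and -1.88), and their difference between arrays missed the threshold. T23F6.3 was higher after both (0.88 after pigEx9), while cor-1 (-2.54), dyf-2 (1.90) and T03D3.5 (-1.29) went the opposite way after pigEx9.

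Of the genes that earlier results of these data had pointed to, T23F6.3 apart, none was called in F1 against rde-4 replicates 9 to 11. The gene saeg-2, whose product acts with SAEG-1 downstream of the cyclic GMP-dependent kinase EGL-4, was at 386, 407 and 339 CPM in F1, against 380.1, 348 and 452 CPM in rde-4 (-0.06 ± 0.11, adjusted p = 0.9998), while N2 averaged 3666 CPM. The gene saeg-1 differed by -0.04 ± 0.08 and the double-stranded RNA channel gene sid-1 by -0.12 ± 0.10. F1 overlapped rde-4 replicates 9 to 11 in all 3, and was below all of replicates 1 to 8 for saeg-1 (-0.52) and saeg-2 (-0.40). Replicates 9 to 11 themselves differed from replicates 1 to 8 by -0.49 for saeg-1 and -0.35 for saeg-2.

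The phosphodiesterase gene pde-4 was at 76.1, 73.9 and 81.8 CPM in F1, above the 57.9, 44.4 and 51.9 CPM of rde-4, and missed the threshold (0.59 ± 0.14, adjusted p = 0.140, edgeR); DESeq2 called it (adjusted p = 0.0150). C18D4.6, at 570, 486 and 618 CPM in F1 and 732, 811 and 889 CPM in rde-4, missed it too (-0.54 ± 0.12, adjusted p = 0.106) and was called by DESeq2 (adjusted p = 0.00311). In both genes F1 overlapped rde-4 replicates 1 to 8. With all 11 rde-4 libraries in the fit, pde-4 differed by 0.33 (adjusted p = 0.186, edgeR) and C18D4.6 by -0.11 (adjusted p = 0.740). For asah-1, an acid ceramidase gene, the difference was -1.71 ± 0.52 (adjusted p = 0.388), and for daf-7, the TGF-beta ligand gene, -0.69 ± 0.27 (adjusted p = 0.730). T28F2.1 was at 1.68, 4.93 and 5.45 CPM in F1 and 1.72, 1.73 and 0.692 CPM in rde-4 (1.498 ± 0.80, adjusted p = 0.942), and crtc-1, a coactivator gene of CREB, differed by -0.52 ± 0.56. F1 and rde-4 overlapped in T28F2.1 and crtc-1 and not in asah-1.

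Further genes stayed within 0.2 on the log2 scale of rde-4 replicates 9 to 11: bath-45 (3167, 3360.1 and 3301 CPM in F1, against 3088, 3198 and 3549 CPM in rde-4), C38D9.2, F15D4.5, jmjc-1, kal-1, dpf-6 and B0564.11 (rde-11, of the RDE-10/RDE-11 amplification complex). Against replicates 1 to 8 some of them moved: F1 was below all 8 for bath-45 (-0.64) and F15D4.5 (-0.53), and differed by 2.16 for jmjc-1. Replicates 9 to 11 differed from replicates 1 to 8 in the same way. They were below all 8 for bath-45 (-0.64) and F15D4.5 (-0.49), and differed by 2.08 for jmjc-1. For jmjc-1, both F1 and replicates 9 to 11 overlapped replicates 1 to 8. Of 49 tested genes of the small RNA machinery, 26 of chromatin silencing and 12 of the EGL-4 and cyclic AMP axis, none was called in F1 against rde-4, with medians of -0.0041, -0.026 and -0.11. Among 225 F-box, 154 chemoreceptor, 71 MATH and BTB, 58 histone, 75 cytosolic ribosomal protein, 31 collagen and epidermis and 20 neuropeptide genes, none was called either. As 0.355% of all genes tested were called, a count of 0 in lists of this size says little about them.

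Of the ERGO-1 candidates, 1 of 20 was called in F1 against rde-4 (0.355% of all genes tested were), the pseudogene H16D19.4, named because the count is small (99.0, 107 and 96.4 CPM in F1, against 133, 129 and 152 CPM in rde-4, -0.45 ± 0.08, adjusted p = 0.0399). It was not lower in F1 than in P0 by the test (-0.11). Among cell type lists, 10 germline genes had a median difference of -0.0077 and 9 oocyte and yolk genes of -0.010, with no call. Of 38 sperm genes 22 were tested and none was called, but 20 were above 0 (5760 of the 11252 genes tested were), with a median of 0.84. Their summed level was 47.2, 29.0 and 88.4 CPM in F1 and 28.2, 34.0 and 28.4 CPM in rde-4, and P0 held 49.1, 43.2 and 133 CPM. F1 replicate 2 thus lay within the range of rde-4. Neuron genes (8 tested) had a median of 0.43 with no call and a summed level of 322 to 454 CPM in F1 and 309 to 397 CPM in rde-4. The part of sperm and neuron genes in the other results was not tested.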

How the data were processed

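The deposited tables hold read counts per gene and library, which the authors made with cutadapt, FastQC and HTSeq on ce10, with DESeq2 for testing, per the submitters' processing notes. Not given in the sources used here are the aligner, the strand setting and the small RNA kit of each library. Reads that HTSeq assigned to no gene did not enter totals or tests.

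The test was edgeR's (version 4.0.16, under R 4.3.3; TMM scaling, filterByExpr by group, robust quasi-likelihood F test, Benjamini-Hochberg over all genes tested, threshold 0.05), on 12 libraries for F1, P0, F3 and rde-4 and on 14 for F1 against all 11 rde-4 libraries. The depth of the 11 rde-4 libraries was 3569387 to 26724702 gene counts. CPM are counts per 1e+06 gene reads; those of the 12 libraries and of the 14 were scaled separately and differ slightly. Alternatives were other scalings and filters, DESeq2 1.42.0, each replicate left out and other control libraries. The edgeR test was tested on simulated counts.

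Deviations of same-numbered P0 and F1 libraries from their group means correlated at 0.26, 0.50 and 0.68, so the numbers may pair P0 with F1. The highest value belongs to replicate 3, which stood apart from the other replicates in both groups. F1 and rde-4 replicates 9 to 11 share no number.

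Named genes are up to 15 per direction called in F1 against rde-4 by adjusted p, up to 6 per direction with the largest differences between F1 and P0 at a mean of at least 5 CPM, and a list of genes that earlier results had pointed to; genes outside this rule are marked in the text. Members, lists and rules were chosen with earlier results of these data known. Of 21965 gene names 21270 matched the RefSeq table for WBcel235, used for names, biotypes and gene order only.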

Additional observations from a re-analysis of the deposited data

Results flagged for a closer look

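What drew attention here is that the F1 effect differed between the arrays, by the contrast of pigEx10 minus pigEx9: 246 genes passed over all genes tested. Among the genes named in the report, it passed with positive log2 differences for Y39B6A.41 (6.52), cor-1 (4.21), T23F6.3 (3.04), T03D3.5 (2.12), Y47D7A.16 (2.05), Y37E11AL.1 (1.64), F54F7.7 (1.62), C03E10.3 (1.28), ZK637.1 (1.25) and egl-8 (1.25). It passed with negative ones for C55C3.7 (-12.38), Y59C2A.1 (-4.36), C53D5.5 (-2.90), C56G7.3 (-2.72), C28C12.1 (-2.55), jip-1 (-1.81), C06A5.12 (-1.65) and chs-2 (-1.45). Groups of 3 libraries are too small for a test of single outlying libraries. Each array was compared with its own rde-4 libraries, so a difference between the control sets cannot be told apart from one between the F1 groups.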

How the results depend on the processing

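Under other scalings and filters, with only the compared groups fitted, or with the listing set as a term over all 11 rde-4 libraries, the calls of F1 against rde-4 numbered 33 to 55, beside 40. DESeq2 called 143. Leaving out 1 library gave 19 to 61, and taking all 11 rde-4 libraries without a set term gave 3, of which 1 was among the 40. There 8 named genes turned direction: T23F6.3 (-0.33), C30G12.1 (-0.82), R11G10.3 (-0.39), ZK637.1 (-0.15), C03E10.3 (-0.68), tag-80 (-0.62), T03D3.5 (-0.052) and B0454.9 (0.29). F1 against all 11 rde-4 libraries alone gave 2 calls on library totals, beside 0. Without replicate 3 of both P0 and F1, an alternative chosen after seeing the data, the calls were 54 against rde-4 and 82 against P0.

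F1 against P0 gave 303 calls with a replicate block over P0 and F1, beside 87, and 66 to 100 under the other alternatives, among them 68 to 78 with a library left out and 82 with the replicate block over P0, F1 and F3. The block over P0 and F1, chosen after seeing the data, lost only C36A4.11 among the genes named for that comparison. F3 against F1 gave 2 calls with DESeq2, 0 to 1 with a library left out and 0 with the replicate block. Same-numbered F1 and F3 libraries showed no clear pairing (correlations 0.33, -0.22 and 0.24). No paired analysis was possible for F1 against rde-4 because the groups share no replicate number. Depth limits genes under about 1 CPM, where a library holds a few reads.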
